A study of Mus musculus with 24 samples.

Results

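The transcripts described here encode 6 dual specificity phosphatases (Dusp1, Dusp2, Dusp4, Dusp5, Dusp6 and Dusp10) and 2 Sprouty proteins (Spry1 and Spry2), all brakes on mitogen-activated protein (MAP) kinase signaling. They were found by symbol or older alias in the annotation of an Affymetrix mouse expression array, which gave 8 probesets of 6 of the 8 genes, out of 22626 probesets and 12393 genes with a single symbol. Dusp4 and Dusp5 had no named probeset and were not analysed here. Expression was measured on 24 arrays of sorted mouse thymocytes, 12 from the diabetes-prone NOD.H2k strain (NOD) and 12 from the B10.H2k strain (B10). Every mouse was a healthy female of 6 to 8 weeks carrying the 3A9 transgenic T cell receptor (TCR), a single receptor clone specific for a peptide of hen egg lysozyme (HEL), and some mice also carried insHEL, which places HEL under the insulin promoter. In each strain, S- cells, which were starting negative selection, were early CD4 single positive cells (CD4+CD8lowCD69+1G12+, where 1G12 is an antibody against the transgenic receptor) from TCR insHEL mice, 3 pools. S+ cells, starting positive selection, had the same surface phenotype and came from TCR mice, 3 pools. PreS cells, not yet selected, were CD4+CD8+CD69-1G12- and came from TCR insHEL mice (3 pools) and from TCR mice (3 pools), and were treated as 1 group of 6 arrays unless the mice are named. CD69, a marker of receptor signaling, and the receptor itself were used for the sort of every population, and the cells were stained in the presence of inhibitors of transcription.

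MAP kinases are switched on by phosphorylation of a threonine and a tyrosine next to each other, and dual specificity phosphatases remove both phosphates. Dusp1, Dusp2, Dusp4 and Dusp5 are nuclear enzymes whose genes are themselves switched on by kinase signaling, Dusp6 is a cytoplasmic phosphatase with a preference for ERK, and Dusp10 acts mostly on JNK and p38. Sprouty proteins act upstream, at the membrane, where they dampen the route from receptors to Ras and ERK. In the thymus, the strength and duration of ERK signaling below the TCR are well known to separate positive from negative selection.

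Promoter sequence was available for 7 of the 8 genes in RefSeq (GRCm38.p6), from 250 bases before to 50 bases after the start of the gene, and was searched on both strands for 6 elements that bind factors downstream of MAP kinases or mark the core promoter. These were a cyclic AMP response element (TGACGTCA), an AP-1 element (TGACTCA or its reverse complement), an EGR element (GCGGGGGCG or GCGTGGGCG), an ETS element (CCGGAAGT), the CArG box of the serum response element, and a TATA box (TATAAA). Dusp1 and Dusp2 each held 1 match, and these are shown with the match in capitals. They were picked for display because both genes were called against unselected cells. Dusp10, which was also called, held none. Dusp1 lies on chromosome 17 (26505591 to 26508472) and the window is at chr17:26508597-26508626, on the strand of the gene. Dusp2 lies on chromosome 2 (127336159 to 127338377) and the window is at chr2:127336051-127336080.
Dusp1 cyclic AMP response element: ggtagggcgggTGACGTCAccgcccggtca
Dusp2 EGR element: acgtgaagccGCGGGGGCGggcaccggcgc
The element of Dusp1 was at bases -143 to -136 from the start, and was present in 1.88% of 27025 mouse promoters of the same length. The element of Dusp2 was at bases -98 to -90, with either of its spellings in 3.49% of promoters. Dusp5 held 2 adjacent CArG boxes (bases -82 to -73 and -72 to -63, chromosome 19), an element found in 1.57% of promoters. Dusp6 (chromosome 10), Dusp10 (chromosome 1), Spry1 (chromosome 3) and Spry2 (chromosome 14) held no match to any of the 6 elements in these windows. Among the same promoters 5.17% held an AP-1 element, 4.0% an ETS element and 14.2% a TATA box. With 6 elements searched in 7 promoters, whether the members held matches more often than other promoters was not tested. No link between a match and a call was tested either. A match is a run of letters in this window, and no binding was measured.

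Values are MAS 5.0 signals, a linear scale on which the arrays were scaled to a trimmed mean of 150, and the signal of one probeset cannot be set against that of another. Replicate arrays correlated with r from 0.843 to 0.967. The sorts carried their markers: the 7 measured genes of double positive thymocytes summed to 2067 to 2960 in NOD S-, 3438 to 4750 in NOD S+ and 9062 to 15412 in NOD PreS arrays, and to 955 to 1343 in B10 S-, 694 to 951 in B10 S+ and 5052 to 6596 in B10 PreS arrays. Of these 7 genes, 4 were called higher in NOD S+ than in B10 S+ cells and none lower, among them Dntt, Rag2 and Rag1 (log2 differences of 4.65, 2.52 and 1.60). Dntt was also called higher in NOD than in B10 at PreS (3.53) and in S- cells (3.20), so its difference was not particular to S+. At PreS Ptcra was called lower in NOD (-1.28). The 8 measured single positive markers summed to 3517 to 4653 in NOD S- and 3963 to 5938 in NOD S+ arrays. In B10 they summed to 2508 to 3188 in S- and 4666 to 5046 in S+ arrays, which did not overlap. In PreS arrays of either strain they summed to 1324 to 2004. Cd4 was called lower in B10 S- than in B10 S+ cells (-1.71, adjusted p = 0.0193 in limma). The part of this difference in the members' values was not tested. The ratio of Gapdh signal at the 3' end to the 5' end, a sign of RNA quality, ran from 2.19 to 57.2, and its 3 highest values were in NOD S+ replicates 1 and 2 and B10 S+ replicate 1. Markers of macrophages and dendritic cells (10 genes) summed to 881 to 2306 in NOD S+ arrays, against 297 to 547 in B10 S+ arrays, and to 485 to 745 in NOD S- and 330 to 1779 in B10 S- arrays, with C1qb, Csf1r and Itgax called higher in NOD S+ than in NOD PreS cells, while Itgam was at 19.0 or below on every array. The summed B cell markers, nearly all of them Ighm, ran from 1666 to 2963 over S- and S+ arrays and from 3167 to 8128 over PreS arrays, with Pax5 and Ebf1 at 20.6 or below throughout, and the 5 epithelial markers summed to 86.7 to 237.1 on every array. The part of these cells and of RNA quality in the members' values was not tested, apart from the refits given beside the results. Arrays were hybridized on 9 days, and 3 arrays in a group limit the precision.

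Dusp1 was called higher in S- and S+ than in PreS thymocytes of both strains. Dusp2 was called higher in NOD S-, NOD S+ and B10 S- but not in B10 S+ cells. Its NOD S+ call held in 9 of 27 refits, and the strains did not detectably differ in the S+ change. Dusp10 was called higher in B10 S- cells by its brighter probeset, and Spry1 and Dusp6 passed no test of the design. A probeset was tested if all 3 arrays of some condition (of 8) read 32 or more, which kept 6 probesets of 5 member genes and left out both probesets of Spry2. In limma, with p values adjusted over 12838 probesets and called under 0.05, 2 of the 6 were called higher in NOD S- than in NOD PreS cells (Dusp1 and Dusp2), where 5.51% of all probesets were called higher. The same 2 were called higher in NOD S+ than in NOD PreS cells, with 6.13% of all probesets called higher. In B10, 3 of 6 were called higher in S- than in PreS cells (Dusp1, Dusp2 and Dusp10), with 4.42% of all probesets called higher, and 1 of 6 in S+ against PreS cells (Dusp1), with 7.37% of all probesets called higher. No member was called lower in any of these, where 5.68% of all probesets were called lower in NOD S-, 8.66% in NOD S+, 6.8% in B10 S- and 9.44% in B10 S+ cells. The median log2 fold change of the 6 probesets was 1.02 in NOD S- and 0.72 in NOD S+ cells and 0.63 in B10 S- and 0.82 in B10 S+ cells, beside medians of 0.02, 0.02, 0.01 and 0.04 over all probesets tested. The 2 comparisons of a strain share its 6 PreS arrays. In bulk samples fewer cells of a type and less RNA per cell cannot be told apart.

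**Figure D1:**
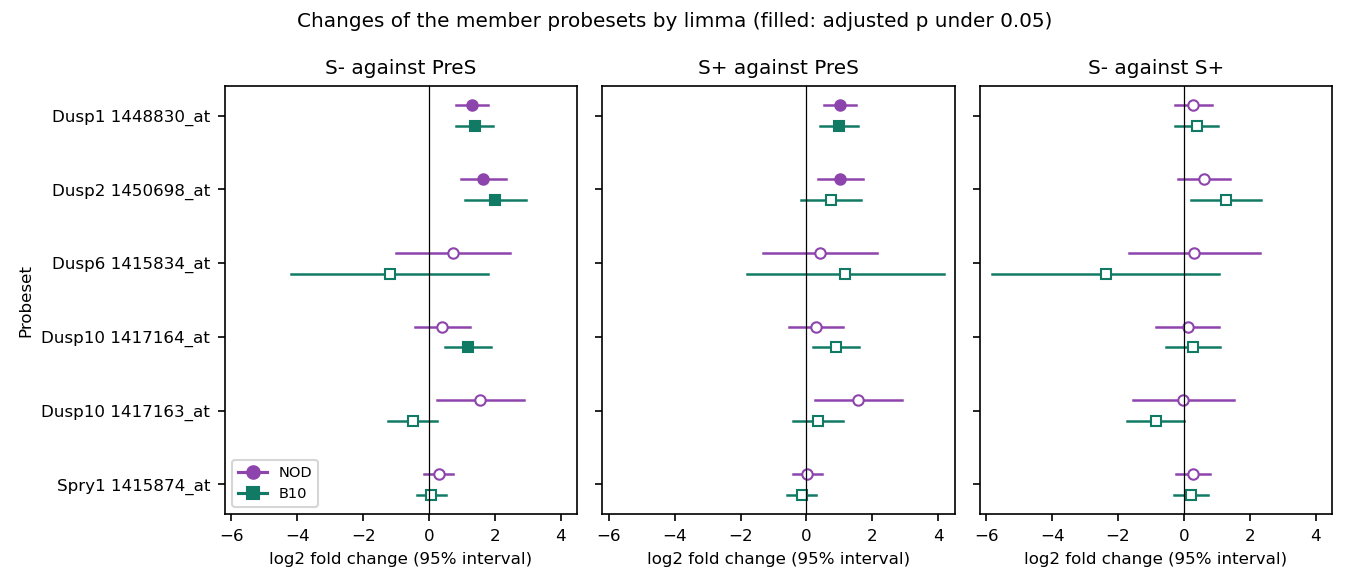
Log2 fold change with its 95% interval for the 6 tested member probesets, from limma fits of each strain (NOD circles, B10 squares, filled where the adjusted p was under 0.05). Dusp1 is filled in all 4 comparisons with PreS, nothing is filled in S- against S+, and the intervals of Dusp6 are the widest of the 6.

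Dusp1 encodes the classical immediate early MAP kinase phosphatase. In NOD its signals were 402.4, 418.5 and 464.7 in S- arrays, 336.1, 280.9 and 420.3 in S+ arrays, and 125.8 at the lowest, 157.2 at the median and 226.5 at the highest of 6 PreS arrays. In B10 they were 334.8, 442.9 and 595.4 in S- arrays, 414.1, 235.8 and 406.5 in S+ arrays, and 115.7, 165.4 and 226.6 at the lowest, the median and the highest PreS array. All 12 arrays of selected cells therefore stood above all 12 PreS arrays, narrowly so for B10 S+ replicate 2, and S- overlapped with S+ in both strains. Groups stood apart in this direction for 14.3% of all probesets in NOD S- against PreS, 11% in NOD S+ against PreS, and 10.1% in each of the 2 B10 comparisons.

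The rise of Dusp1 over PreS was 2.47-fold in NOD S- cells (log2 fold change 1.30, SE 0.23, adjusted p = 0.00254) and 2.02-fold in NOD S+ cells (1.02, SE 0.23, adjusted p = 0.0109). In B10 it was 2.62-fold in S- cells (1.39, SE 0.27, adjusted p = 0.00353) and 2.00-fold in S+ cells (1.00, SE 0.27, adjusted p = 0.0189). Thus the 4 estimates lay close to each other, and the difference between the strains in these changes was -0.08 for S- (95% interval -0.80 to 0.63) and 0.02 for S+ (-0.70 to 0.73). S- cells did not differ from S+ cells beyond the spread, by 0.29 in NOD (-0.28 to 0.85) and by 0.39 in B10 (-0.27 to 1.05). On days shared by 2 groups the selected array had the higher Dusp1 signal in each of 4 pairs, for example 280.9 in NOD S+ against 125.8 in NOD PreS cells and 334.8 in B10 S- against 155.0 in B10 PreS cells. Some of these pairs share an array. No pair set NOD S- against NOD PreS arrays, which were hybridized on days 1, 2 and 5 and on days 3, 4, 6 and 7. A fit with the day can therefore compare NOD S- with NOD PreS cells only through other groups. With all 24 arrays in 1 fit and the hybridization day as a block, Dusp1 stayed called in the 4 comparisons (adjusted p from 0.00979 to 0.0170), while with the day as a block within 1 strain, where few degrees of freedom remain, it was called in none of them (adjusted p from 0.108 to 1.00, with 0 probesets of any gene called in NOD S-). Both S+ calls were lost under settings that left the S- calls of Dusp1 in place. Without B10 S+ replicate 1 or 3, the adjusted p of B10 S+ cells was 0.0855 or 0.0789, and leaving out the 3 arrays of highest Gapdh ratio, which leaves 1 NOD S+ array assumed to vary like the other groups, gave 1.28 (adjusted p = 0.117) in NOD S+ cells. Against only the PreS arrays of TCR mice, the genotype of the S+ cells, Dusp1 was at 0.93 in NOD S+ (adjusted p = 0.0716) and 0.98 in B10 S+ cells (adjusted p = 0.118), and neither was called.

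**Figure D2:**
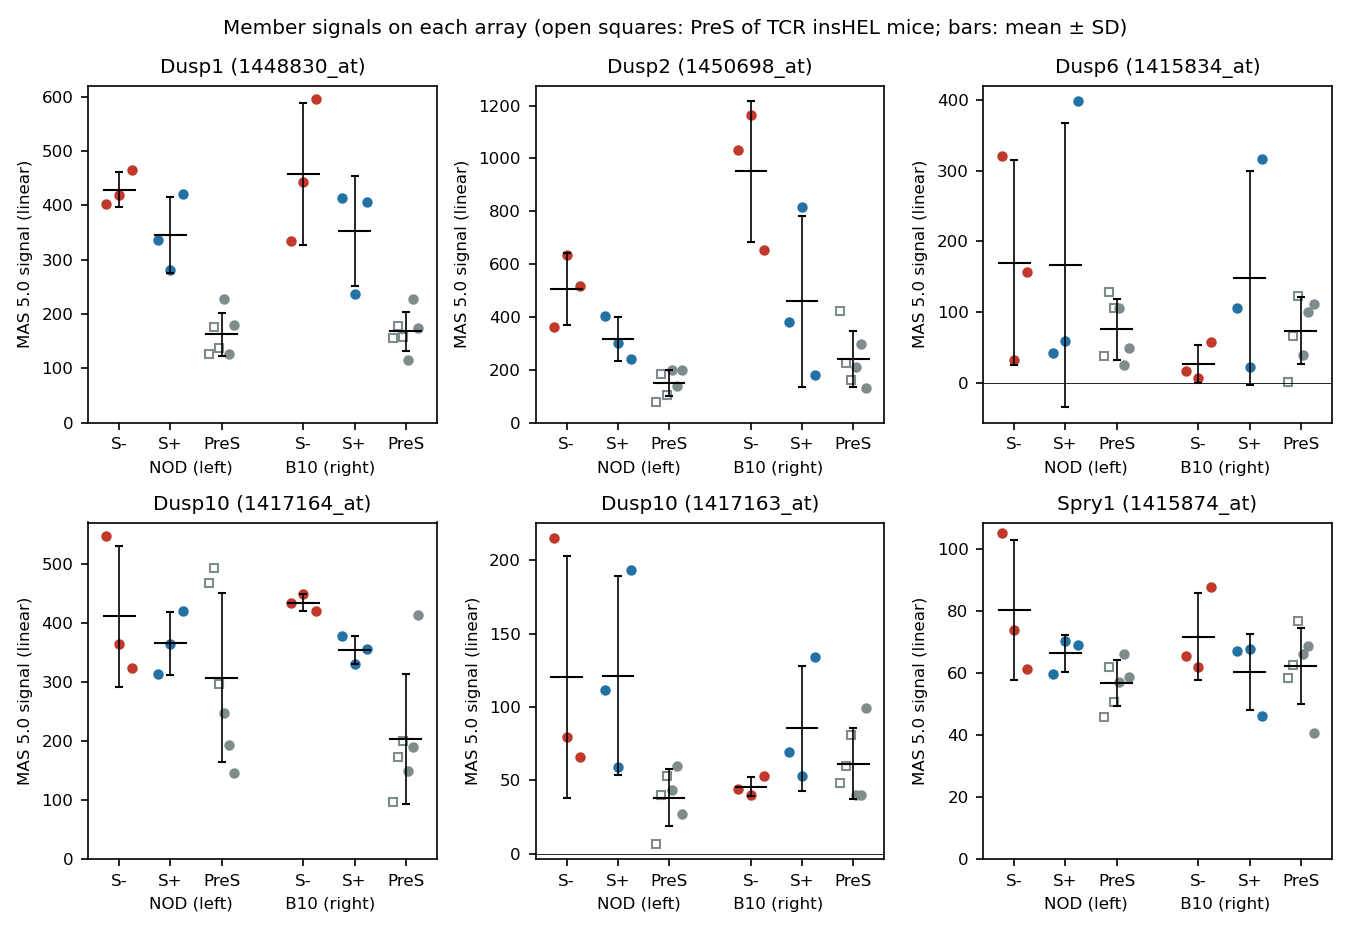
MAS 5.0 signal of each member probeset on the 24 arrays, on a linear axis, for S-, S+ and PreS cells of NOD (left) and B10 (right), with the mean and SD of each group. Open squares are PreS arrays of TCR insHEL mice. The Dusp1 arrays of selected cells all lie above 230, and PreS arrays at or below 226.6.

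Dusp2, a nuclear phosphatase of activated lymphocytes (known as PAC-1), had the largest of the called changes over PreS cells. Its signals were 363.8, 633.6 and 518.0 in NOD S- arrays, 404.5, 302.6 and 240.4 in NOD S+ arrays, and 78.4, 160.2 and 198.3 at the lowest, the median and the highest of the NOD PreS arrays. They were 1033.7, 1166.5 and 653.3 in B10 S- arrays, 379.9, 816.0 and 181.1 in B10 S+ arrays, and 130.3, 217.8 and 421.5 at the lowest, the median and the highest of the B10 PreS arrays. Both S- groups and NOD S+ stood clear of their PreS arrays, and only B10 S+ overlapped with them, through replicates 1 and 3. The same was seen for 14.3% of all probesets in NOD S-, 11% in NOD S+ and 10.1% in B10 S- cells.

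In NOD S- cells Dusp2 was 3.15-fold above PreS (log2 fold change 1.65, SE 0.32, adjusted p = 0.00482), and in NOD S+ cells 2.04-fold (1.03, SE 0.32, adjusted p = 0.0450). In B10 S- cells it was 4.05-fold above PreS (2.02, SE 0.43, adjusted p = 0.00682). The value in B10 S+ cells was 1.68-fold, with an interval on the log2 scale from -0.17 to 1.67 (adjusted p = 0.272). The call in NOD S+ cells was lost when any of 9 single arrays was left out, with the highest adjusted p, 0.206, without NOD S+ replicate 1. It was also lost with all 24 arrays in 1 fit and with the Gapdh ratio as a covariate. The log2 fold change in NOD S+ cells was 0.62 without the 3 arrays of highest Gapdh ratio, which leaves 1 NOD S+ array. The macrophage and dendritic markers above had their highest median in this same group. The call in B10 S- cells held without any single array (adjusted p up to 0.0482), and was lost against only the PreS arrays of TCR insHEL mice (1.89, adjusted p = 0.0597). With the day as a block over 24 arrays Dusp2 stayed called in NOD S- cells (1.73, adjusted p = 0.0193), while the values in NOD S+ (1.21, adjusted p = 0.0531) and B10 S- cells (1.15, adjusted p = 0.141) were not called. The NOD S- value rests on links through other groups, since NOD S- and NOD PreS arrays shared no day. With the day as a block within 1 strain none of the 3 calls held.

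Dusp2 was also the member with the highest mean in S- cells relative to S+ cells, at 505 ± 135 in S- against 316 ± 83 in S+ arrays of NOD, and at 951 ± 266 in S- against 459 ± 325 in S+ arrays of B10 (SD, n = 3 each). The S- array was higher in each of the 4 pairs of S- and S+ arrays hybridized on 1 day, by 1.51-fold and 1.57-fold in NOD and by 1.27-fold and 1.72-fold in B10. Neither difference passed the limma test after adjustment. The log2 fold change was 0.62 in NOD (95% interval -0.17 to 1.41, adjusted p = 0.803). In B10 it was 1.27 (0.21 to 2.33, unadjusted p = 0.0225, adjusted p = 0.310), and the groups overlapped in both strains. The paper names Dusp2 among the genes of chromosome band 2F that rose most in B10 negative selection. Its contrasts were called at p under 0.05, an unlike threshold. No member was called in S- against S+ cells in either strain, where 1.67% of all probesets were called in B10 and 0% in NOD (565 probesets had an unadjusted p under 0.05). The change of NOD minus that of B10 was -0.65 (-1.98 to 0.68, adjusted p = 0.817), so that a difference of the strains in this step was not detectable with these arrays.

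Dusp6, the cytoplasmic ERK phosphatase, varied widely between replicates and was called in no comparison of the main fits, which held groups only. With array weights it was called in NOD against B10 S- cells. It read 320.7, 32.3 and 156.8 in NOD S- arrays, 42.1, 58.9 and 397.8 in NOD S+ arrays, and 25.9, 78.0 and 129.1 at the lowest, the median and the highest of the NOD PreS arrays. In B10 it read 16.6, 6.5 and 57.2 in S- arrays, 106.0, 23.0 and 316.6 in S+ arrays, and 0.6, 83.6 and 123.4 at the lowest, the median and the highest PreS array. Its residual SD within groups was 1.94 on the log2 scale, where the median of all tested probesets was 0.42 and 11 of 12838 probesets had a larger one. With the hybridization day added to the groups the residual SD of Dusp6 was 0.89. The 4 arrays of days 8 and 9, all from B10, held the lowest signals, 0.6 to 23.0, and the 4 arrays of day 5, from both strains, held 111.1 to 397.8.

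On a shared day the S+ array had more Dusp6 signal than the PreS array in each of 3 pairs, at 58.9 against 25.9 in NOD, and at 316.6 against 66.8 and at 23.0 against 0.6 in B10. The log2 fold change of B10 S+ against PreS cells was 1.19 (95% interval -1.80 to 4.18, adjusted p = 0.622) with groups only, 3.60 (adjusted p = 0.00379) with the day as a block in B10, and 2.60 (adjusted p = 0.0156) with the day as a block over 24 arrays. For B10 S- against PreS cells it was -1.19 (-4.18 to 1.80, adjusted p = 0.646) with groups only, 3.24 (adjusted p = 0.0394) with the day as a block in B10 and 2.13 (adjusted p = 0.183) over 24 arrays, so the sign turned. These blocked values rest on few arrays, among them the signal of 0.6. The NOD estimates were 0.73 for S- (-0.998 to 2.46) and 0.41 for S+ (-1.31 to 2.14) against PreS cells, and neither was called with the day as a block.

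**Figure D3:**
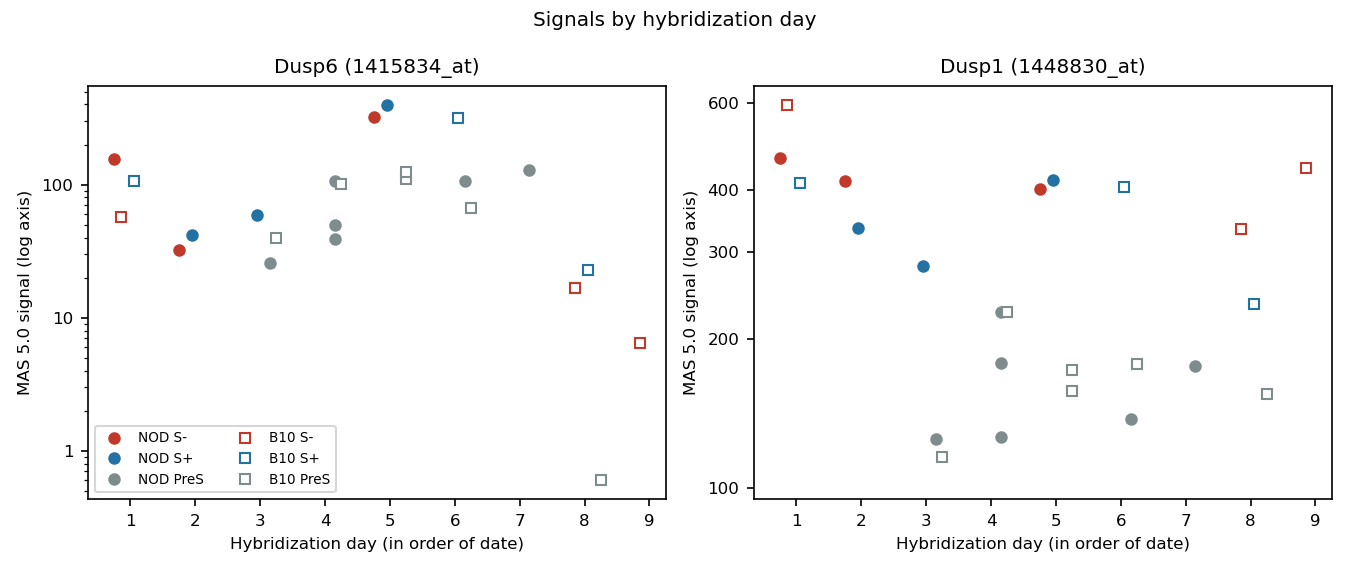
Signals of Dusp6 (left) and Dusp1 (right) by hybridization day, on log axes, with NOD arrays filled, B10 arrays open and colour giving the population. For Dusp6 the lowest values, from 0.6 to 23.0, fall on days 8 and 9. For Dusp1 the S- and S+ arrays lie above the PreS arrays whatever the day.

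Dusp10, a phosphatase of JNK and p38, had 2 probesets that did not move together (r = 0.11 over the 24 arrays, which share strains, groups and days). By the brighter one, 1417164_at, B10 S- arrays read 433.9, 449.5 and 421.4, B10 S+ arrays 377.9, 330.6 and 357.3, and B10 PreS arrays 96.4 at the lowest, 181.5 at the median and 414.9 at the highest. The S- arrays thus stood above all PreS arrays, as in 10.1% of all probesets, and above all S+ arrays, as in 8.62%. A single PreS array, TCR replicate 3, stood above the S+ arrays. S- cells were 2.27-fold above PreS cells (log2 fold change 1.18, SE 0.33, adjusted p = 0.0329), S+ cells 1.86-fold (0.90, SE 0.33, adjusted p = 0.0824), and S- against S+ cells gave 0.29 (-0.53 to 1.11, adjusted p = 0.863). With the day as a block the value in B10 S- cells was 1.75 in B10 (adjusted p = 0.0914) and 1.65 over 24 arrays (adjusted p = 0.0940), neither called. It was also not called by the methods' t-test (adjusted p = 0.0786) or with no filter (0.0890). The call in B10 S- cells was lost in 7 of the 12 fits that left out 1 array, with the highest adjusted p, 0.121, without B10 S- replicate 2, and the value in B10 S+ cells was called (adjusted p = 0.00458) without the PreS array of TCR replicate 3. In NOD the same probeset read 548.4, 365.0 and 323.8 in S- arrays, 313.4, 365.1 and 420.4 in S+ arrays, and 146.9, 272.7 and 493.6 at the lowest, the median and the highest PreS array, with log2 fold changes over PreS of 0.41 in S- (-0.41 to 1.24) and 0.30 in S+ cells (-0.52 to 1.12), not called.

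At 1417164_at the NOD PreS arrays split by the mice they came from, in a difference that was not called. PreS arrays of NOD TCR insHEL mice read 468.3, 493.6 and 297.1, against 248.3, 193.3 and 146.9 in those of NOD TCR mice, while B10 TCR insHEL mice gave 96.4, 172.6 and 200.4, against 148.9, 190.4 and 414.9 in B10 TCR mice. The groups did not overlap in NOD, as for 5.94% of all probesets in this direction, and overlapped in B10. The log2 fold change of TCR insHEL over TCR mice was 1.16 in NOD (95% interval 0.48 to 1.84, unadjusted p = 0.00303 in limma, adjusted p = 0.378) and -0.59 in B10 (-1.37 to 0.19, adjusted p = 1.00), so neither was called, in comparisons that called 0.0312% of all probesets in NOD and 0% in B10 (287 had an unadjusted p under 0.05). The Gapdh ratio was 28.9, 10.7 and 4.01 in the 3 NOD TCR insHEL arrays, in the order above, and 5.28, 16.6 and 2.99 in the NOD TCR arrays. At 1417163_at the same NOD comparison went the other way, at -0.72 (-2.26 to 0.83, adjusted p = 0.732). Compared with only the PreS arrays of TCR insHEL mice, the genotype of the S- cells, NOD S- cells had a log2 fold change of -0.17 (adjusted p = 0.750) at 1417164_at.

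**Figure D4:**
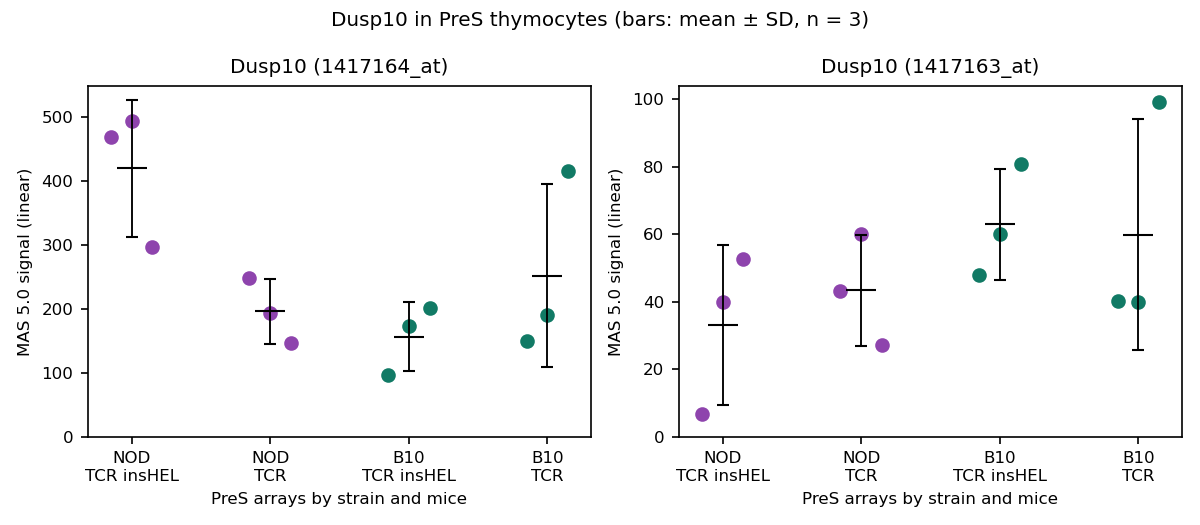
Signals of the 2 Dusp10 probesets in PreS arrays of TCR insHEL and TCR mice, on linear axes, with the mean and SD of 3 arrays for NOD and B10. At 1417164_at the 3 NOD TCR insHEL arrays lie at 297.1 or above, over all 3 NOD TCR arrays, and at 1417163_at they lie at 52.7 or below.

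The dimmer probeset, 1417163_at, gave another order. It read 215.4, 79.3 and 66.2 in NOD S- arrays, 111.3, 59.2 and 193.6 in NOD S+ arrays, and 6.7, 41.5 and 60.0 at the lowest, the median and the highest NOD PreS array. In B10 it read 44.3, 39.9 and 52.9 in S- arrays, 69.6, 53.1 and 133.8 in S+ arrays, and 40.0, 54.0 and 99.3 at the lowest, the median and the highest PreS array. NOD S- arrays stood above NOD PreS arrays, as in 14.3% of all probesets, while B10 S- arrays stood below all B10 S+ arrays, as in 7.3% of all probesets. The log2 fold change over PreS was 1.56 in NOD S- (SE 0.62, adjusted p = 0.123) and 1.58 in NOD S+ cells (SE 0.62, adjusted p = 0.10), and -0.50 in B10 S- (-1.25 to 0.25, adjusted p = 0.411) and 0.35 in B10 S+ cells (-0.40 to 1.10, adjusted p = 0.554). In B10 S- against S+ cells it was -0.85 (-1.72 to 0.02, adjusted p = 0.443). With all 24 arrays in 1 fit the NOD values were called, with adjusted p = 0.0446 in S- and 0.0359 in S+ cells, and with the day as a block in NOD their sign turned, to -0.36 in S- and -0.21 in S+ cells. In the fits of each strain both Dusp10 probesets had positive estimates over PreS in NOD S-, NOD S+ and B10 S+ cells. In B10 S- cells their signs were opposite, at 1.18 for 1417164_at and -0.50 for 1417163_at. The size of the change differed between the probesets, and the direction of Dusp10 is uncertain in both strains.

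Spry1, a Sprouty gene with known roles in T cells, had signals of a narrow range. They ran from 61.5 to 105.4 in NOD S-, from 59.6 to 70.4 in NOD S+ and from 45.8 to 66.3 in NOD PreS arrays, and from 62.1 to 87.8 in B10 S-, from 46.1 to 67.7 in B10 S+ and from 40.6 to 76.7 in B10 PreS arrays. The groups overlapped in every comparison. Its log2 fold changes against PreS lay between -0.14 in B10 S+ cells (95% interval -0.58 to 0.30, adjusted p = 0.698) and 0.30 in NOD S- cells (-0.14 to 0.74, adjusted p = 0.373), so a change of more than 0.74 on this scale lies outside the intervals of the 4 comparisons. Its residual SD of 0.23 was the smallest of the members. Spry2 was dim, from 9.7 to 45.4 at one probeset and from 7.4 to 37.6 at the other over all arrays, and was not tested.

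Between the strains no member was called at any stage, where 4.13% of all probesets were called at PreS, 3.7% in S+ and 2.32% in S- cells in either direction. The change of NOD minus that of B10 was likewise called for no member, with 0.101% of all probesets called for S- against PreS, 0.358% for S+ against PreS and 0.148% for S- against S+. Dusp2 had a lower mean log2 signal in NOD at each stage, with overlapping arrays in S+ and PreS cells and groups that did not overlap in S- cells, at 363.8, 633.6 and 518.0 in NOD, against 1033.7, 1166.5 and 653.3 in B10. This split was seen in 12.6% of all probesets. On day 1, the only day with S- arrays of both strains, the signals were 518.0 in NOD and 653.3 in B10 (log2 difference -0.41). The arrays of days 8 and 9, all from B10, held the highest Dusp2 signals of each B10 population, from 421.5 to 1166.5, and no NOD array was hybridized on these days. The log2 difference of NOD minus B10 was -0.96 in S- (95% interval -1.90 to -0.02, adjusted p = 0.330), -0.31 in S+ (-1.25 to 0.63, adjusted p = 0.744) and -0.60 in PreS cells (-1.26 to 0.07, adjusted p = 0.323), and the NOD array had the lower Dusp2 signal in each of 5 pairs of PreS arrays hybridized on 1 day, pairs that share some arrays. The change of Dusp2 over PreS was not detectably different between the strains in S- cells, with -0.36 for NOD minus B10 (-1.51 to 0.79, adjusted p = 0.800). Dusp10 differed in opposite ways at its 2 probesets in PreS cells, by 0.64 (0.01 to 1.27, adjusted p = 0.266) at 1417164_at and by -0.83 (-1.73 to 0.07, adjusted p = 0.312) at 1417163_at. In S- cells 1417163_at was higher on all 3 NOD arrays than on all 3 B10 arrays, as in 15.1% of all probesets, with a log2 difference of 1.23 (-0.04 to 2.50, adjusted p = 0.358). For Dusp6 the S- difference was 2.73 (-0.21 to 5.68, adjusted p = 0.383), and it was -0.07 with the day as a block.

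The genes around the members were read from lists. Of 15 tested genes known for fast induction by ERK signaling, 9 were called higher in NOD S-, 7 in NOD S+, 8 in B10 S- and 9 in B10 S+ cells than in PreS cells, none was called lower, and none was called in S- against S+ cells of either strain. The orphan nuclear receptor Nr4a1 had the largest change. It averaged 1256 ± 146 in NOD S-, 658 ± 37 in NOD S+ and 94.5 ± 36.5 in NOD PreS arrays, and 1813 ± 167 in B10 S-, 843 ± 76 in B10 S+ and 173 ± 52 in B10 PreS arrays (SD, n = 3, 3 and 6). Zfp36l1, which encodes an mRNA decay factor, was called in the 4 comparisons, with log2 fold changes of 2.49 in NOD S-, 2.46 in NOD S+, 1.61 in B10 S- and 1.85 in B10 S+ cells, and Egr2, a zinc finger factor of the TCR response, rose by 2.39 in NOD S-, 2.60 in NOD S+, 1.52 in B10 S- and 1.59 in B10 S+ cells. In PreS cells Myc and Nr4a1 were lower in NOD than in B10, with log2 differences of -1.01 (adjusted p = 0.0141) and -0.87 (adjusted p = 0.0438).

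Of 8 tested genes on the route to ERK, Map2k1 (the kinase MEK1) was called higher in NOD S- (log2 fold change 1.02), NOD S+ (0.84) and B10 S+ cells (0.85) than in PreS cells, and Araf in NOD S- cells (0.99), with no other call. Of 9 tested genes on the route to JNK and p38, Mapk11, which encodes p38 beta, was called higher in the 4 comparisons, by 2.50 in NOD S-, 1.99 in NOD S+, 1.48 in B10 S- and 2.17 in B10 S+ cells. Map3k7 (the kinase TAK1) was lower in NOD than in B10 at PreS (-0.87, adjusted p = 0.0131) and in S- cells (-1.19, adjusted p = 0.0243). Among 6 other dual specificity phosphatases that were tested, Dusp22 was called higher in NOD S+ (1.14) and B10 S+ cells (1.47), Dusp7, which acts on ERK, in NOD S- (1.29) and NOD S+ cells (1.43), and Dusp16, which acts on JNK, was called lower in NOD S+ (-1.44) and B10 S+ cells (-1.31). Dusp16 was also lower in NOD than in B10 at PreS, with 43.6 ± 16.2 against 120 ± 28.9 (SD, n = 6 each, adjusted p = 0.00585), and in S+ cells, with 23.0 ± 15.7 against 51.4 ± 14.2 (SD, n = 3 each, adjusted p = 0.0445). Spry4 read 15.1 or below on every array and was not tested, and no call in these comparisons fell on the tested relatives and partners of Sprouty, which were Spred1, Spred2, Cbl and Grb2.

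The patterns most like each member over the 24 arrays were sought among probesets with a mean signal of at least 100, as a description, since arrays of 1 group, strain and day share their levels. For Dusp1 they were Bcl2l11 (r = 0.94), which encodes the death inducer Bim, and the TNF receptor family members Tnfrsf4 (0.92) and Tnfrsf25 (0.91). For Dusp2 they were another probeset of Bcl2l11 (0.93), the adhesion molecule Icam1 (0.87) and Ablim1 (0.85). Dusp1 and Dusp2 correlated with each other at r = 0.66. For Dusp6 they were Rassf2 (0.94), Cltc (0.88) and Cat (0.88), which encode a Ras-binding protein, clathrin heavy chain and catalase, and Dusp6 correlated with Dusp1 at 0.19 and with Dusp2 at -0.45. The closest genes were less alike for Dusp10 at 1417164_at (Zfand6 at 0.76, Sesn1 at 0.75 and Ifi27l2a at 0.74) and for Spry1 (Sec14l1 at 0.72, Dag1 at 0.66 and Plec at 0.61).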

How the data were processed

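Per the paper's methods, RNA of sorted cells went through 2 rounds of in vitro amplification, and the authors computed MAS 5.0 signals, a linear signal per probeset scaled on each array to a trimmed mean of 150. The deposited signal table held 22690 probesets. After removal of 64 control probesets, 33 signals of 0 were set to 0.1, log2 values were standardized within each array and returned to 1 log2 scale, and a probeset stayed if all 3 arrays of some condition (of 8) read 32 or more (12838 of 22626), in place of present calls, which were not used here. Symbols were taken from the platform annotation, updated through the gene identifier to RefSeq, with 1 symbol for 20380 probesets, several for 691 and none for 1555. Where a gene had several probesets, that of highest mean signal led.

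Each strain was fitted alone in limma 3.58.1 (R 4.3.3), with the PreS groups merged, and differences between strains in 1 fit of 24 arrays. P values were adjusted by Benjamini-Hochberg over the kept probesets. The fits were tested on simulated data. All member probesets are named. Of the other lists, at most the 3 called genes of largest change were named in a comparison, and for likeness the 3 of highest Pearson r. The members and lists were chosen with earlier results of these data known. Alternatives were the methods' t-test, array weights, MAS 5.0 scaling alone, a signal floor of 16, quantile normalization, no filter or one at 64, blocks by replicate number or by day, PreS arrays of the same genotype as the S- or S+ cells, a fit of all 24 arrays, and each array left out in turn. The test of the strain difference in the insHEL effect, the day block over 24 arrays and both refits on the Gapdh ratio were chosen after seeing the data.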

Additional observations from a re-analysis of the deposited data

Results flagged for a closer look

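Among the 16 groups of 6 PreS arrays looked at, where chance marks about 1 in 20, a single array stood far from the others in 2. Dusp6 read 0.6 in B10 PreS TCR insHEL replicate 1, and its gap to the next array was 0.772 of the range of the group on the log2 scale. Spry2 at 1421656_at read 45.4 in NOD PreS TCR insHEL replicate 1, with a gap of 0.639 of the range.

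In 3 cases every array of one strain lay on one side of the mean of the arrays it was set against. Every array of the other strain lay on the opposite side. The groups did not overlap in NOD for the Dusp10 cases and in B10 for the Spry2 case. They overlapped in the other strain. At Dusp10 1417163_at, S- cells were above PreS cells in NOD and below them in B10, with a log2 difference of 2.06 between the strains (95% interval 0.51 to 3.62, limma, unadjusted p = 0.0117, adjusted p = 0.290). At Dusp10 1417164_at, PreS cells of TCR insHEL mice were above those of TCR mice in NOD and below them in B10, with a difference of 1.75 (0.73 to 2.76, unadjusted p = 0.00178, adjusted p = 0.520). Neither passed the test. At Spry2 1421656_at the same comparison differed by 1.23 between the strains, on dim signals, and this difference was not tested.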

How the results depend on the processing

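Of 1263 values of 44 reported member changes under other settings, 1182 kept their direction and their side of the threshold, 44 lost a call (18 with 1 array left out), 11 gained one and 26 turned direction, none of them from a call. In B10 S+ against PreS cells 0 member probesets were called with no filter, with the PreS arrays of the same genotype or without the 3 arrays of highest Gapdh ratio, 2 with the day as a random block or as a block over 24 arrays, and 0 to 2 with 1 array left out. In B10 S- against PreS cells the day as a block left 1 call in B10 (Dusp6) and 1 over 24 arrays (Dusp1), Dusp2 was lost against the PreS arrays of the same genotype, and Dusp10 with no filter or the methods' t-test. In NOD S+ against PreS cells 1 was called with no filter, the methods' t-test or the day block over 24 arrays, 0 with the day as a block, the PreS arrays of the same genotype or without the 3 arrays of highest Gapdh ratio, and 1 to 2 with 1 array left out, and in NOD S- against PreS cells 0 with the day as a block. In NOD PreS cells of TCR insHEL against TCR mice the day as a block called 1 (Dusp10 1417163_at) and array weights 1 (Dusp10 1417164_at), and array weights called 2 (Dusp2 and Dusp6) in NOD against B10 S- cells. The cause of these changes was not tested.

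With the hybridization day as a block the log2 change turned to 3.24 for Dusp6 in B10 S- against PreS, -0.21 and -0.36 for Dusp10 1417163_at in NOD S+ and S- against PreS, -0.26 for Dusp6 in NOD S- against S+, -0.0749 for Dusp6 in NOD against B10 S- cells, and 0.58 for Dusp2 in the strain difference of S- against PreS. With the day block over 24 arrays it turned to 2.13 for Dusp6 and 0.0769 for Dusp10 1417163_at in B10 S- against PreS, and 0.0222 for Dusp10 1417163_at in NOD S- against S+. Array weights turned Dusp6 to -0.37 in NOD S+ against PreS and Dusp10 1417164_at to -0.0015 in NOD S- against S+, and the PreS arrays of the same genotype turned Dusp10 1417164_at to -0.17 in NOD S- against PreS. In NOD S- against S+ Dusp6 was -0.90 with the Gapdh ratio as a covariate and -1.75 without its 3 highest arrays, which turned Dusp10 1417164_at to -0.0548. With 1 array left out, Dusp6 ran from -0.62 to 1.07 in NOD S+ against PreS and from -0.38 to 1.35 in NOD S- against S+, Dusp10 1417163_at from -0.0458 to 0.66 in B10 S+ against PreS and from -0.51 to 0.41 in NOD S- against S+, Dusp10 1417164_at from -0.12 to 0.28 in NOD S- against S+, and Spry1 from -0.24 to 0.0193 in B10 S+ against PreS.

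Replicate numbers did not pair the arrays (mean correlation of deviations 0.04 over 84 pairs of same-numbered arrays, from -0.32 to 0.63). A replicate block left 1 member called in NOD S+ against PreS cells, where Dusp2 had an adjusted p of 0.0545, and changed no other call of a member.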
